A study of Mus musculus with 46 samples.

Results

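Dual-specificity phosphatases remove phosphate from both the threonine and the tyrosine that switch a MAP kinase on. The 10 mouse genes described here, Dusp1, Dusp2, Dusp3, Dusp4, Dusp5, Dusp6, Dusp7, Dusp8, Dusp10 and Dusp16, were picked by symbol, with no threshold on a measured value. All 10 were listed in each of the 4 RNA-seq experiments, among 24537 genes in experiments 1 and 3 and 25124 genes in experiments 2 and 4. The study measured polyadenylated RNA of mouse bone marrow-derived macrophages activated through the LPS receptor, with the SWI/SNF chromatin remodeller left intact or perturbed by a compound or a deleted subunit.

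In experiment 4, wild-type cells given ACBI1, BRM014 or BRDK98 were set against wild-type controls after 20 and 60 min with lipid A, the membrane anchor of LPS, and controls were also taken at 0 min. Experiment 1 compared the same 3 compounds with wild-type controls at 4 hr of lipid A and had controls at 0 and 1 hr. Experiment 2 set Arid1a-/- cells against Arid1a f/f controls after 1 and 4 hr with LPS, and sampled f/f cells at 0 hr. Experiment 3 compared Pbrm1-/- cells with Pbrm1 f/f control cells at 4 hr of lipid A, with f/f cells at 0 hr. Each group had 2 libraries, except the 4 hr control of experiment 1, which counted as 1 because its deposited columns were identical. ACBI1 makes cells degrade SMARCA2 and SMARCA4, the alternative ATPases of SWI/SNF, together with PBRM1, and BRM014 inhibits those ATPases. The third compound, BRDK98, has only a code name in the labels. Doses, vehicle, ages and the Cre driver are not given in the labels, and unstimulated cells with a perturbation were not analysed here. No label says whether the libraries of a group came from separate cultures or animals, so the p-values measure the spread between these libraries, which may be technical.

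Lipid A and LPS act through Toll-like receptor 4, which activates the ERK, JNK and p38 MAP kinases within minutes. Most of the phosphatase genes are themselves switched on by the same signal, so that their products end the kinase activity that induced them. In macrophages DUSP1 is the best known of these brakes and limits the output of inflammatory cytokines. The members differ in where they act and on what: DUSP1, DUSP2, DUSP4 and DUSP5 are inducible nuclear enzymes, DUSP6 and DUSP7 are cytoplasmic and act on ERK, and DUSP8, DUSP10 and DUSP16 act mainly on JNK and p38. DUSP3 is a small phosphatase without the kinase-binding domain that the others carry.

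The start-site windows of the 4 members that rose by 20 min are shown because these were the first to move. Each runs over 300 bases, the last 50 of them after the RefSeq gene start (GRCm38.p6), 5′ to 3′ on the gene's strand, with motif matches in capitals. The windows lie at chr17:26508423-26508722 (minus strand) for Dusp1, chr2:127335909-127336208 (plus strand) for Dusp2, chr19:53528895-53529194 (plus strand) for Dusp5 and chr10:99262981-99263280 (plus strand) for Dusp6.
Dusp1: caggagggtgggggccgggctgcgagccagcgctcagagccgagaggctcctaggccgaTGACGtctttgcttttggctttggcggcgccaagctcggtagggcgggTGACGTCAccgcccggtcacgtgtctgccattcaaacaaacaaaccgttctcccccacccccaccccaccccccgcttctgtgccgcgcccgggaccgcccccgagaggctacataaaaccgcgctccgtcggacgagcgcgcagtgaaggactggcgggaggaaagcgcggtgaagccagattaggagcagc
Dusp2: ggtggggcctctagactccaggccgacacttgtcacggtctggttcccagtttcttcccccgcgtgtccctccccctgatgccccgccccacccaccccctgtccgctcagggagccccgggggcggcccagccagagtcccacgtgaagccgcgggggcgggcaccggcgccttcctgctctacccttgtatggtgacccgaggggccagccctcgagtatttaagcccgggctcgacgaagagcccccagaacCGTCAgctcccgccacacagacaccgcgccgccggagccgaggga
Dusp5: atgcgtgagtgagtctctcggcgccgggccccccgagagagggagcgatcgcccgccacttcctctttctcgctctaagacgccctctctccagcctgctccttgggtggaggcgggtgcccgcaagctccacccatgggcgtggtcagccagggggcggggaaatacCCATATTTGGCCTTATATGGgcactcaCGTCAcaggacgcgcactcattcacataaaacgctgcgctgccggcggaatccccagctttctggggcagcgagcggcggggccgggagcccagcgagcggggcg
Dusp6: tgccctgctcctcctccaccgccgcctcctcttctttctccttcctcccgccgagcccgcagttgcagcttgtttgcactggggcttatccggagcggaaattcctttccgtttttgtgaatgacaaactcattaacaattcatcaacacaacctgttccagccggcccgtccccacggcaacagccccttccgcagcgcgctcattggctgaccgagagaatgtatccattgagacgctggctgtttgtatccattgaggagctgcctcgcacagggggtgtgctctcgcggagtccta
The motifs searched on both strands were the full cAMP response element TGACGTCA, its core TGACG, the AP-1 site TGANTCA, the CArG box and the NF-kB site, and every full element also counts as a core. The Dusp1 window held a full element starting at base -143 and a further core at -191, counted from the gene start. The Dusp2 window held 1 core, at base 5 inside the transcribed part. The Dusp5 window held 2 adjacent CArG boxes, the site bound by serum response factor, at -82 and -72, and a core at -55. None of the 5 motifs was found in the Dusp6 window, so it has no capitals. Of the 10 members 9 had a window, with Dusp4 as the exception. Among those 9, 2 held the full element (Dusp1, and Dusp8 at -107 and -63), against 1.79% of 32851 mouse windows of the same length. The core was in 5 of 9, against 20.8% of all windows, and the CArG box was in 1 of 9, against 1.63%. The AP-1 site and the NF-kB site were in 0 of 9, against 7.81% and 8.46%. A match is a description of letters and not a measured binding site.

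Levels are given in TPM, a count scaled to transcript length and library size, and changes as differences on the log2(TPM + 1) scale with their SE and the Benjamini-Hochberg adjusted p of limma over all genes tested. A gene is said to rise or fall where the adjusted p was under 0.05 in the same direction on the TPM as deposited and after median-ratio scaling. This scale understates changes of low genes such as Dusp8 and Dusp10. Where a library is left out, the adjusted p given is the larger over both scalings. The libraries held 7015044 to 27527275 reads in exons. A count of 3 reads on a 2 kb transcript was worth 0.0654 to 0.298 TPM, depending on the library. Macrophage markers summed to 14201.84 to 46975.5 TPM in every library, and the lymphocyte, erythroid and mast cell markers stayed below 1 TPM each. The sum of the 5 granulocyte markers reached 420.46 TPM in experiment 4 and 397.94 TPM in experiment 3. Among them Ly6g stayed below 1 TPM in every library, as did Elane in experiment 3, so other genes of the list carried the sum. The 4 dendritic cell markers summed to at most 9.68 TPM, reached in experiment 1. One 1 hr control library of experiment 1, replicate 1, held stromal transcripts, whose 3 markers summed to 93.4 TPM. Pbrm1 was at 4.54 and 5.03 TPM in Pbrm1-/- cells, against 15.6 and 14.7 TPM in f/f cells at 4 hr. Arid1a was at 7.17 and 13.2 TPM in Arid1a-/- cells at 1 hr, against 18.3 and 17.3 TPM in f/f cells. At 4 hr it was at 25.4 and 26.1 TPM in Arid1a-/- cells, against 35.2 and 41.9 TPM. A level covers all exons, deleted or not. By limma Arid1a fell at 1 hr (-0.80, adjusted p = 0.0165) but did not pass at 4 hr (-0.56, adjusted p = 0.0838). Pbrm1 did not pass in Pbrm1-/- cells (-1.48, adjusted p = 0.0265 on the deposited TPM and 0.114 after scaling). The 4 hr f/f libraries of experiment 3 stood apart from each other, as did the 0 hr f/f libraries of experiment 2 for Dusp4 and Dusp5, and results that rest on them are given below without either library in turn. In bulk RNA, fewer cells of a type and less RNA per cell cannot be told apart.

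In unstimulated control cells the members differed widely in TPM, a unit already corrected for transcript length. In experiment 4 at 0 min Dusp3 was the highest, at 59.1 and 62.5 TPM, followed by Dusp7 at 25.2 and 29.8 TPM and Dusp1 at 16.1 and 17.8 TPM. Dusp6 followed at 11.1 and 12.5 TPM, Dusp5 at 6.17 and 8.15 TPM and Dusp16 at 5.004 and 4.87 TPM. Dusp4 was at 3.55 and 3.26 TPM, Dusp2 at 2.71 and 2.51 TPM, Dusp10 at 1.34 and 1.23 TPM and Dusp8 at 0.320 and 0.697 TPM. No neighbours in that order overlapped between their 2 libraries. The unstimulated controls of the other experiments also had Dusp3 highest, at 45.5 to 74.1 TPM, and Dusp7 next, at 19.4 to 41.3 TPM. Dusp5, Dusp10 and Dusp16 were counted on transcript models of different lengths in different experiments, so their levels are compared within an experiment.

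**Figure D1:**
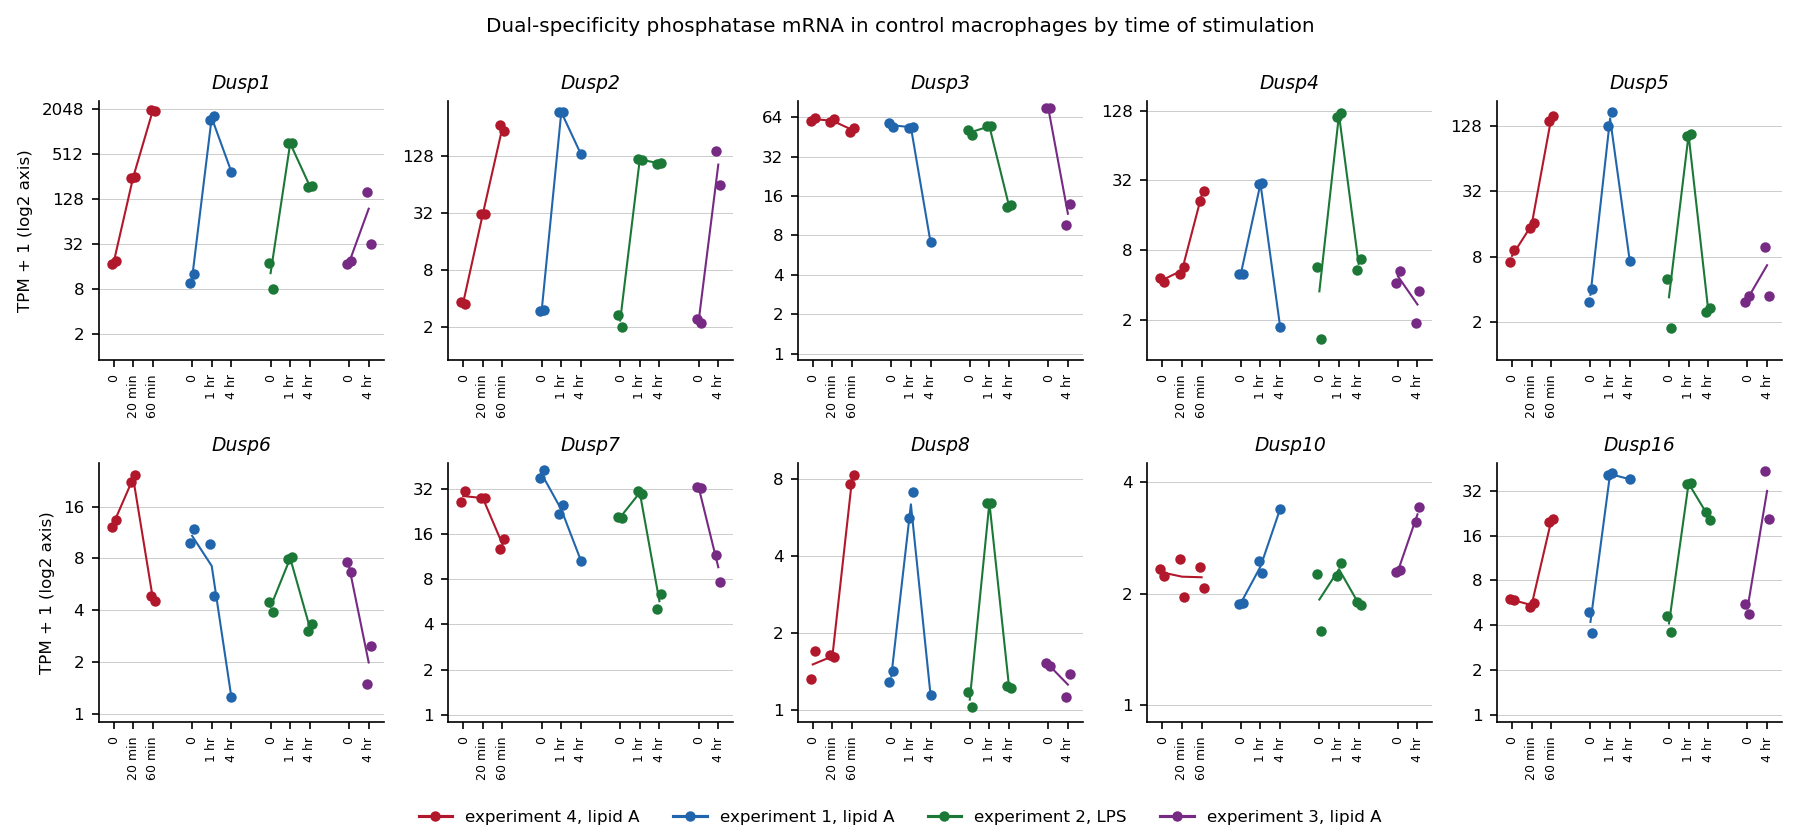
TPM + 1 of each member in control cells against time after lipid A or LPS, on log2 axes, 1 panel per gene and 1 point per library, coloured by experiment, with lines through the mean TPM of each group. Dusp1 and Dusp2 lie far above the unstimulated level by 20 min, Dusp4, Dusp8 and Dusp16 do so between 20 and 60 min, and Dusp3 and Dusp7 end at 4 hr below where they began.

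At 20 min of lipid A, 4 of the 10 phosphatase genes rose in control cells and 0 fell, while 0.736% of the 11549 genes tested rose and 0.346% fell. The median log2 difference was 0.19 over the members and -0.03 over all genes tested. Dusp1, the nuclear phosphatase of p38 and JNK, was at 246 and 256 TPM at 20 min, against 16.1 and 17.8 TPM at 0 min. Dusp2, a nuclear phosphatase of immune cells, was at 30.2 and 30.7 TPM at 20 min, against 2.71 and 2.51 TPM at 0 min. For both genes the 20 min libraries lay far above the unstimulated ones. The differences on the log2(TPM + 1) scale were 3.81 ± 0.10 for Dusp1 (SE; limma adjusted p = 1.1e-11) and 3.12 ± 0.10 for Dusp2 (adjusted p = 1.26e-10). Dusp5, a nuclear phosphatase specific to ERK, was at 13.8 and 15.5 TPM at 20 min, against 6.17 and 8.15 TPM at 0 min. Dusp6, its cytoplasmic counterpart, was at 21.2 and 23.6 TPM at 20 min, against 11.1 and 12.5 TPM at 0 min. These rises were smaller, at 0.95 ± 0.14 for Dusp5 (adjusted p = 0.00388) and 0.87 ± 0.17 for Dusp6 (adjusted p = 0.02). Both calls were lost without 0 min control replicate 1 (0.77 with adjusted p = 0.0786 for Dusp5, 0.80 with 0.261 for Dusp6) or 20 min control replicate 2 (0.87 with 0.0804, 0.80 with 0.249), and that of Dusp6 also without 20 min control replicate 1 (0.94 with 0.0746). Without either 60 min BRM014 library, which enters through the shared error, 4 members were called and the share of all genes called in either direction was 9.56% and 9.59%. The remaining 6 members had log2 differences between -0.12 for Dusp16 and 0.27 for Dusp4, and none passed the test.

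At 60 min the inducible nuclear members were at their highest among the times of experiment 4. Dusp1 was at 1987 and 1956 TPM, against 16.1 and 17.8 TPM at 0 min (log2 difference 6.78 ± 0.10, adjusted p = 3.11e-15). Dusp2 was at 276 and 239 TPM, against 2.71 and 2.51 TPM (6.16 ± 0.10, adjusted p = 1.43e-14), and Dusp5 was at 141 and 158 TPM, against 6.17 and 8.15 TPM (4.22 ± 0.14, adjusted p = 3.57e-11). These 3 genes rose again between 20 and 60 min, by 2.97, 3.04 and 3.27 on the log2 scale. A second set, not called at 20 min, had risen by 60 min. Dusp4, a nuclear phosphatase of ERK and JNK, was at 20.4 and 25.2 TPM, against 3.55 and 3.26 TPM at 0 min (2.43 ± 0.16, adjusted p = 3.45e-08). Dusp8 was at 6.60 and 7.28 TPM, against 0.320 and 0.697 TPM (2.41 ± 0.12, adjusted p = 2.36e-09), and Dusp16 was at 18.7 and 19.5 TPM, against 5.004 and 4.87 TPM (1.76 ± 0.10, adjusted p = 5.57e-09). In each of these 6 genes both 60 min libraries lay above both unstimulated ones, a separation not counted over all genes. The cytoplasmic ERK phosphatases went the other way. Dusp6, which had risen at 20 min, was at 3.85 and 3.54 TPM at 60 min, against 11.1 and 12.5 TPM at 0 min (-1.44 ± 0.17, adjusted p = 9.65e-06), and Dusp7 was at 11.6 and 13.7 TPM, against 25.2 and 29.8 TPM (-1.06 ± 0.15, adjusted p = 4.22e-05). In all, 6 of 10 members rose and 2 fell, against 7.47% and 18.1% of all genes tested, and between 60 and 20 min 6 rose and 2 fell, against 7.34% and 15.9%. Dusp3 (-0.27) and Dusp10 (-0.05) did not pass at 60 min. The median difference at 60 min was 2.08 over the members and -0.33 over all genes on the deposited TPM, and a member was called only where it passed in the same direction after median-ratio scaling too, which Dusp3 did not (0.12).

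Dusp1, Dusp2, Dusp4, Dusp5, Dusp8 and Dusp16 also rose at 1 hr in both of the other experiments that sampled it. With lipid A in experiment 1, Dusp1 was at 1482 and 1669 TPM at 1 hr, against 8.51 and 11.8 TPM at 0 hr (7.16 ± 0.13, adjusted p = 7.52e-11), and 6 members rose and 0 fell, against 9.9% and 19.2% of 11531 genes. With LPS in Arid1a f/f cells of experiment 2, Dusp1 was at 714 and 715 TPM, against 17.0 and 7.04 TPM (5.89 ± 0.33, adjusted p = 2.47e-05). There 8 members rose and 0 fell, against 13.6% and 20.2% of 11798 genes. The 2 further risers were Dusp6, at 6.89 and 7.17 TPM against 3.49 and 2.89 TPM (0.94 ± 0.15, adjusted p = 0.000679), and Dusp7, at 29.8 and 28.3 TPM against 19.7 and 19.4 TPM (0.55 ± 0.16, adjusted p = 0.0211). The Dusp7 call was lost without any 1 of the 4 libraries involved, with differences of 0.51 to 0.58 and adjusted p of 0.0733 to 0.106. In experiment 1 Dusp6 was at 8.67 and 3.81 TPM at 1 hr, against 8.82 and 10.8 TPM at 0 hr, and did not pass (-0.66, adjusted p = 0.0581), but it fell without 1 hr control replicate 1, the library with stromal transcripts, whose part in this was not tested (-1.16, adjusted p = 0.019). The unstimulated levels of Dusp4 differed between libraries in experiment 2, and it was at 112 and 123 TPM at 1 hr against 4.67 and 0.365 TPM at 0 hr (5.41 ± 0.68, adjusted p = 0.00136; 6.44 without 0 hr replicate 1 and 4.38 without replicate 2). Dusp5 was at 103 and 108 TPM at 1 hr, against 4.02 and 0.767 TPM at 0 hr (5.16 ± 0.43, adjusted p = 0.000121; 5.91 without 0 hr replicate 1 and 4.405 without replicate 2). In experiment 1 Dusp4 was at 28.7 and 29.3 TPM at 1 hr, against 4.02 and 3.99 TPM at 0 hr (2.59 ± 0.17, adjusted p = 9.17e-07). The stimuli and the cells differ between these experiments, and the difference between them was not tested.

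By 4 hr most members were below their 1 hr level. In experiment 1, 8 members fell between 1 and 4 hr and 1 rose, against 34.9% and 22.7% of all genes tested. Dusp5 was at 6.39 TPM in the single 4 hr control, against 128 and 171 TPM at 1 hr (-4.33 ± 0.21, adjusted p = 6.57e-08), and Dusp4 was at 0.741 TPM, against 28.7 and 29.3 TPM (-4.11 ± 0.20, adjusted p = 7.39e-08). Dusp1 was at 298 TPM, against 1482 and 1669 TPM (-2.40 ± 0.16, adjusted p = 5.29e-07), and Dusp2 was at 134 TPM, against 375 and 377 TPM (-1.48 ± 0.14, adjusted p = 6.15e-06). The error of that single library is borrowed from the other groups. Dusp16, a JNK and p38 phosphatase, was at 37.2 TPM at 4 hr, against 39.9 and 40.9 TPM at 1 hr, and did not pass (-0.12, adjusted p = 0.548). The 1 riser was Dusp10, at 2.39 TPM against 1.45 and 1.28 TPM (0.52 ± 0.19, adjusted p = 0.0307). Without 1 hr control replicate 2 that call (0.46, adjusted p = 0.0892) and the fall of Dusp7 (-1.03, adjusted p = 0.0566) were lost. In Arid1a f/f cells 7 members fell and 0 rose between 1 and 4 hr of LPS, against 32.4% and 17.7% of all genes tested. They were Dusp1, Dusp3, Dusp4, Dusp5, Dusp6, Dusp7 and Dusp8, with log2 differences of -1.34 for Dusp6 to -5.36 for Dusp5.

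Set against unstimulated cells, 4 hr left Dusp2 and Dusp16 up and Dusp3 and Dusp7 down in all 3 experiments. Dusp2 was at 134 TPM at 4 hr in experiment 1 (5.50 ± 0.14, adjusted p = 9.15e-10), at 105 and 109 TPM in experiment 2 (5.54 ± 0.15, adjusted p = 3.42e-10) and at 145 and 62.9 TPM in experiment 3 (5.38 ± 0.37, adjusted p = 3.71e-05), against 1.02 to 1.996 TPM at 0 hr. Dusp3 was at 6.11 TPM, against 56.6 and 52.5 TPM, in experiment 1 (-2.96 ± 0.12, adjusted p = 1.04e-08), at 12.2 and 12.7 TPM, against 50.2 and 45.5 TPM, in experiment 2 (-1.86 ± 0.09, adjusted p = 2.21e-08) and at 8.58 and 12.8 TPM, against 74.1 and 74.0 TPM, in experiment 3 (-2.70 ± 0.20, adjusted p = 4.91e-06). The annotated exons of Dusp3 share 604 bases with Gm20659 on the other strand, and counting was blind to strand. In experiment 1, 5 members rose and 4 fell (20.1% and 37.4% of all genes). In experiment 2, 3 rose and 2 fell (17.9% and 35.5%). In experiment 3, 3 rose and 3 fell of the 9 tested (16% and 30.6%), where Dusp8 missed the filter on low values. The counts of falls were thus near or below the shares of all genes. In experiment 2 the unstimulated libraries decided the direction of Dusp5, which was at 1.46 and 1.72 TPM at 4 hr, against 4.02 and 0.767 TPM at 0 hr, and did not pass (-0.20). It was called higher without 0 hr replicate 1 (0.55, adjusted p = 0.0139) and lower without 0 hr replicate 2 (-0.955, adjusted p = 0.031). Dusp4 there was at 4.41 and 5.74 TPM, against 4.67 and 0.365 TPM, and did not pass (1.12), but was called higher without 0 hr replicate 1 (2.15, adjusted p = 0.00115) and not without replicate 2 (0.09). The counts without these libraries were 7 and 6 members, where 47.9% and 47.5% of all genes were called in either direction. Dusp1 was still up in experiment 1 (4.76 ± 0.16, adjusted p = 4.36e-09) and experiment 2 (3.99 ± 0.33, adjusted p = 3.33e-05). In experiment 3 it was at 158 and 30.7 TPM in the 4 hr f/f libraries, against 16.3 and 17.9 TPM at 0 hr, and did not pass (1.98 ± 0.81, adjusted p = 0.0852). It rose without either of those 2 libraries, by 3.14 without replicate 2 and by 0.81 without replicate 1. Without f/f replicate 2 at 4 hr, Dusp5 was also called higher (1.60, adjusted p = 8.22e-05; 0.09 without replicate 1) and Dusp4 lower (-1.34, adjusted p = 0.0281; -0.41 without replicate 1). Dusp16 was at 3.06 without replicate 2 and 2.003 without replicate 1, and Dusp6 at -2.26 and -1.53. The count was 9 without replicate 2 and 7 without replicate 1, where 49.3% and 45.4% of all genes were called in either direction. In experiment 3 the falls of Dusp7 (adjusted p = 0.0508 and 0.0545) and the rise of Dusp10 (0.139 and 0.126) were lost without either 0 hr library, which left 4 members called (35.8% and 31.5% of all genes). The authors' deposited tables called 5 members higher and 4 lower in experiment 1, 3 and 2 in experiment 2, and 5 and 3 in experiment 3. Those higher in experiment 3 included Dusp1 (log2 fold change 3.43, adjusted p = 0.00637) and Dusp5 (2.27, adjusted p = 0.00174), which did not pass here. The share of all genes called in those tables was not counted. On the deposited TPM the median over the members was 0.30, 0.08 and 0.51 in experiments 1, 2 and 3, and that over all genes was -0.84, -0.63 and -0.75.

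The other genes of the MAP kinase pathway were counted by list, to be read against the 7.47% of all genes that rose and the 18.1% that fell at 60 min. At 60 min, 3 of 19 upstream kinases rose and 1 fell, including Map2k3, which activates p38, at 76.0 TPM against 32.1 TPM at 0 min (1.22 ± 0.07) and Map3k1 at 8.73 TPM against 28.9 TPM (-1.62 ± 0.12). Of the 7 tested MAP kinases 2 rose and 1 fell. Mapk6 was at 133 TPM against 43.6 TPM (1.58 ± 0.11). Of the 10 kinases activated by MAP kinases 1 rose and 1 fell, and the riser Mapkapk2, the main effector of p38, was at 533 TPM against 179 TPM (1.57 ± 0.07). Of the 9 tested inhibitors outside the phosphatase family 3 rose and 3 fell, and the ERK antagonist Spry2 was at 7.53 TPM against 3.05 TPM (1.08 ± 0.13). Of the 7 tested other dual-specificity phosphatases 1 rose and 0 fell. At 4 hr in experiment 1, 10 of the 19 upstream kinases fell and 3 rose, and 5 of 10 downstream kinases fell and 3 rose, against 37.4% of all genes that fell and 20.1% that rose. Mapk14, which encodes p38 alpha, was then at 7.55 TPM against 132 TPM at 0 hr (-3.96 ± 0.09).

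**Figure D2:**
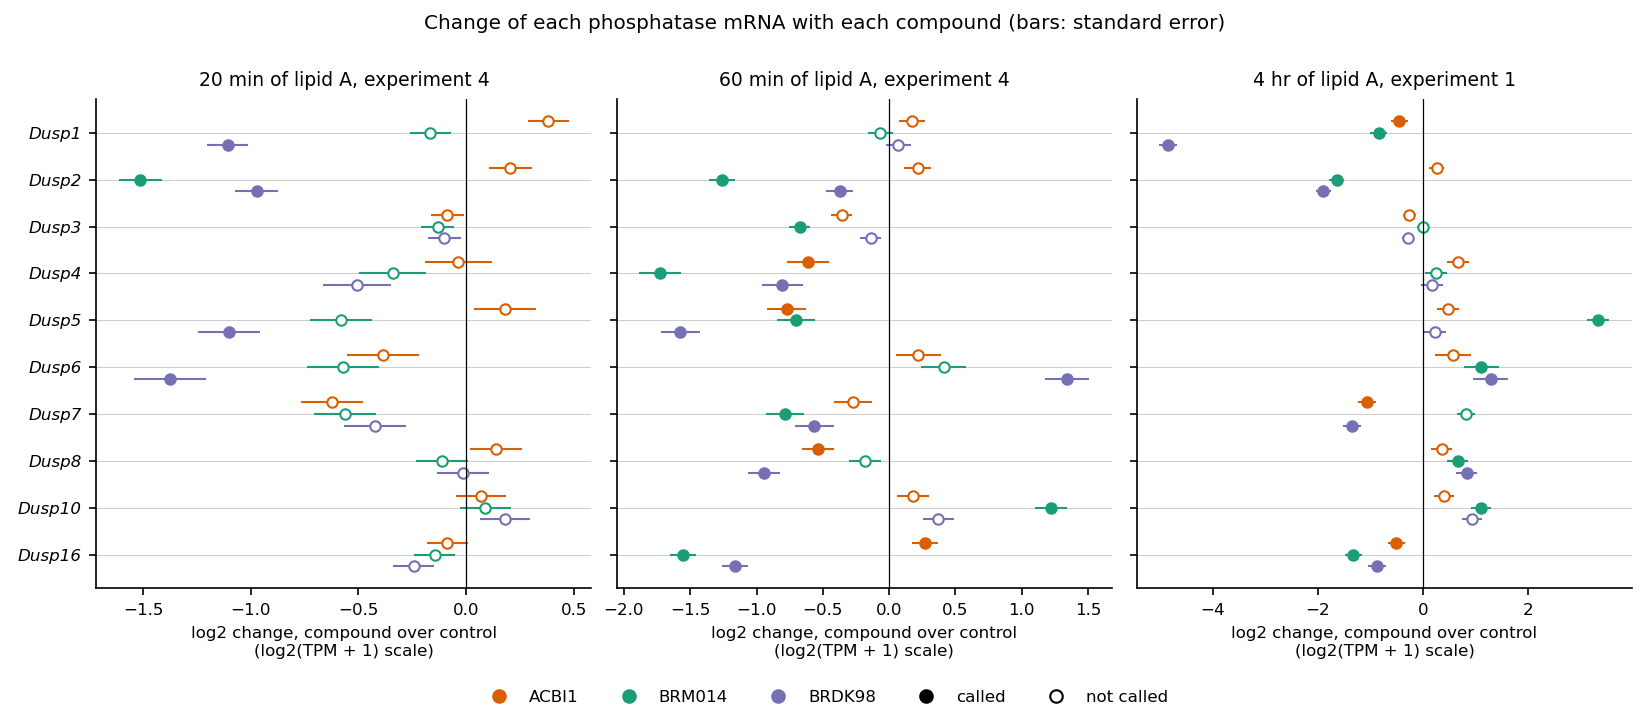
Log2 differences of the 10 members between compound-treated and control cells at 20 min, 60 min and 4 hr of lipid A, on the log2(TPM + 1) scale, with bars of 1 SE. Filled points passed the test. The BRDK98 value of Dusp1 is -1.11 at 20 min, 0.07 at 60 min and -4.85 at 4 hr.

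The compounds parted from each other at 20 min. The median log2 difference of the members was 0.02 with ACBI1, -0.25 with BRM014 and -0.46 with BRDK98, where that of all genes was -0.02, -0.03 and -0.01. With BRDK98, 4 members fell and 0 rose, against 0.849% and 0.485% of all genes tested, and these were Dusp1, Dusp2, Dusp5 and Dusp6. Dusp1 was at 102 and 132 TPM with BRDK98, against 246 and 256 TPM in control cells (-1.11 ± 0.10, adjusted p = 1.75e-05), and Dusp2 was at 14.0 and 16.1 TPM, against 30.2 and 30.7 TPM (-0.97 ± 0.10, adjusted p = 9.09e-05). Dusp5 was at 6.07 and 6.49 TPM, against 13.8 and 15.5 TPM (-1.10 ± 0.14, adjusted p = 0.00072), and Dusp6 was at 7.42 and 8.63 TPM, against 21.2 and 23.6 TPM (-1.38 ± 0.17, adjusted p = 0.000368). The Dusp5 libraries with BRDK98 overlapped the 0 min control values of 6.17 and 8.15 TPM, and those of Dusp6 lay below its 0 min values of 11.1 and 12.5 TPM. With BRM014 1 member fell and 0 rose, against 0.329% and 0.0606%. It was Dusp2, at 9.50 and 10.6 TPM with BRM014 (-1.51 ± 0.10, adjusted p = 2.68e-06), while Dusp1, at 217 and 231 TPM, did not pass (-0.17, adjusted p = 0.62). With ACBI1 0 members were called by limma, against 0.0866% higher and 0.0606% lower over all genes. An unadjusted limma p under 0.05 was found for 3 of 10 members and for 675 of the 11549 genes tested. Dusp1 was at 324 and 331 TPM with ACBI1, above both control libraries (0.38 ± 0.10, adjusted p = 0.312), and Dusp7 was at 17.0 and 16.9 TPM, against 26.5 and 26.8 TPM (-0.62 ± 0.15, adjusted p = 0.251). The authors' deposited table called 1 member higher and 2 lower with ACBI1 at this time. It called 0 higher and 4 lower with BRM014 (Dusp2, Dusp5, Dusp6 and Dusp7), and 0 higher and 5 lower with BRDK98. The share of all genes called in that table was not counted. The 60 min BRM014 replicates differed most in experiment 4. Without either of them Dusp7 fell with ACBI1 (adjusted p = 0.0169 and 0.0173) and with BRM014 (0.0178 and 0.0185), and Dusp6 fell with BRM014 (-0.57, adjusted p = 0.0072 and 0.00767). With BRDK98, Dusp4 (-0.51, adjusted p = 0.00875 and 0.00879) and Dusp7 (-0.42, 0.04 and 0.0405) were then called lower as well. The counts became 1 with ACBI1, 3 with BRM014 and 6 with BRDK98, while the share of all genes called in either direction became 0.73%, 3.58% to 3.59% and 5.59% to 5.61%.

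Between compounds at 20 min, BRDK98-treated cells had less of 4 members than ACBI1-treated cells, where 1.06% of all genes were lower: Dusp1 (-1.49 ± 0.10, adjusted p = 6.87e-07), Dusp2 (-1.18), Dusp5 (-1.28) and Dusp6 (-0.99). BRM014-treated cells had less of 3 members than ACBI1-treated cells, where 0.303% were lower: Dusp2 (-1.72 ± 0.10, adjusted p = 6.79e-07), Dusp1 (-0.55, adjusted p = 0.0194) and Dusp5 (-0.76, adjusted p = 0.0354). BRDK98-treated cells had less Dusp1 (-0.94) and Dusp6 (-0.80) than BRM014-treated cells, 2 members of 10, where 0.563% were lower. Of the BRM014 against ACBI1 calls, that of Dusp1 was lost without any 1 of the 4 libraries compared (-0.50 to -0.59, adjusted p of 0.135 to 0.286). That of Dusp5 was lost without any 1 of 11 libraries, with differences of -0.57 to -0.82 and the largest adjusted p, 0.577, without BRM014 replicate 1. The Dusp6 call of BRDK98 against BRM014 was lost without any 1 of 14 libraries, up to an adjusted p of 0.381 without BRM014 replicate 2, and that of BRDK98 against ACBI1 without ACBI1 replicate 2 (-0.93, 0.0779) or BRDK98 replicate 1 (-0.89, 0.095). Without either 60 min BRM014 library, Dusp4 was also called lower with BRDK98 than with ACBI1 (-0.47) and Dusp2 higher with BRDK98 than with BRM014 (0.54). All comparisons of a compound with control at one time share the same control libraries.

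**Figure D3:**
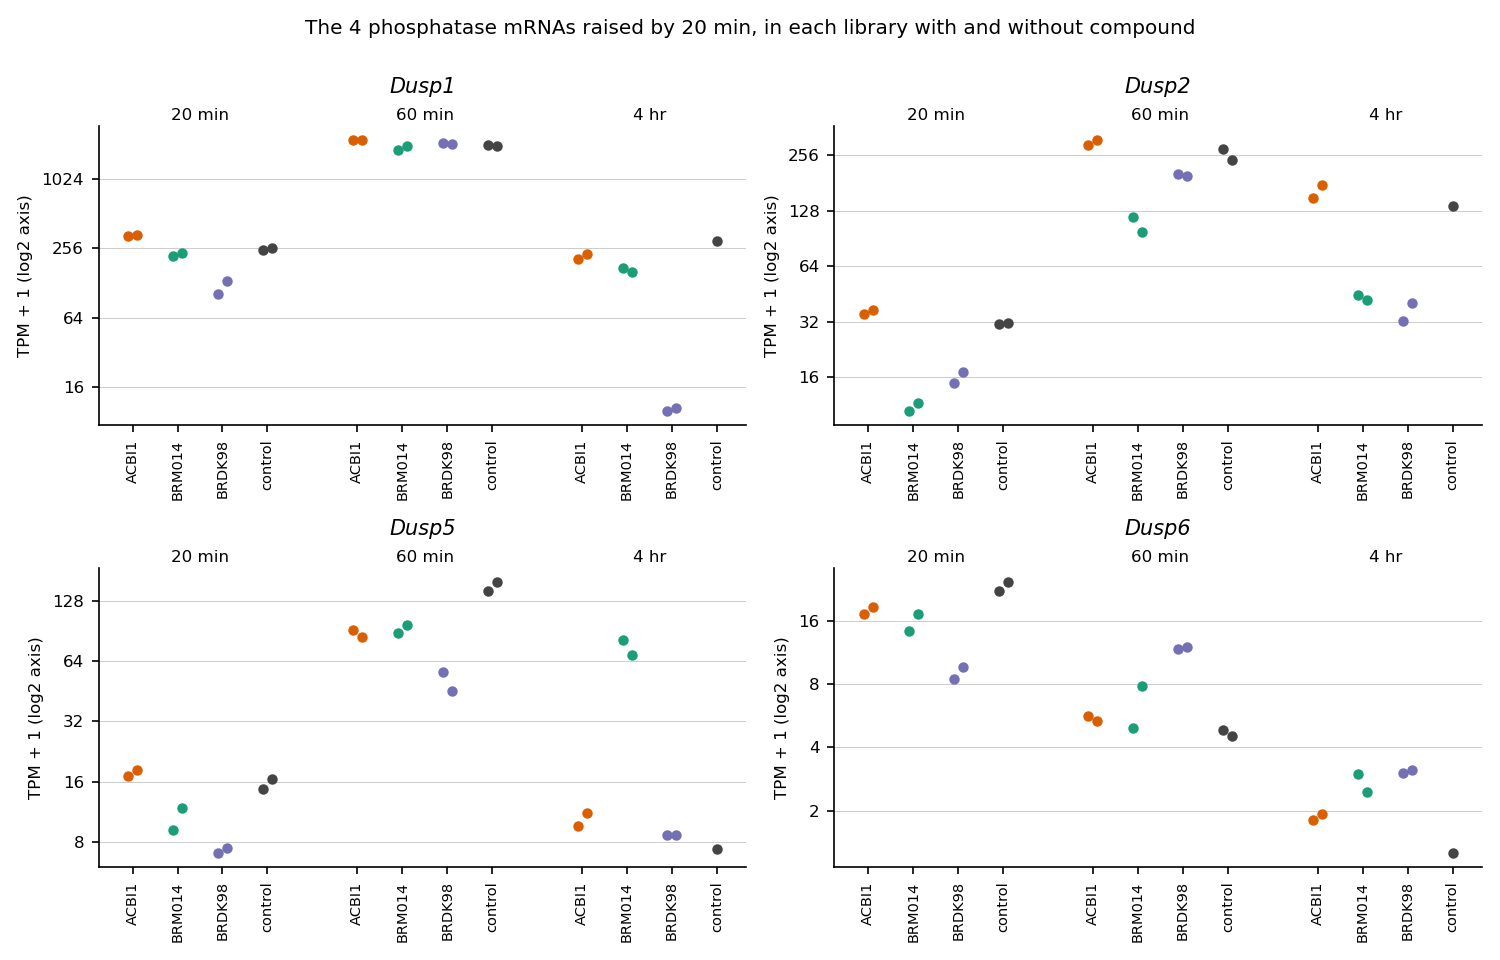
TPM + 1 of Dusp1, Dusp2, Dusp5 and Dusp6 on log2 axes, by compound and time after lipid A, 1 point per library, with 20 and 60 min from experiment 4 and 4 hr from experiment 1. At 60 min the Dusp1 libraries of all treatments lie between 1807 and 2234 TPM, whereas those of Dusp5 lie between 44.3 and 158 TPM.

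At 60 min Dusp1 was at 2234 and 2209 TPM with ACBI1, at 1807 and 1964 TPM with BRM014 and at 2089 and 2048 TPM with BRDK98, against 1987 and 1956 TPM in control cells. None of these differences passed (0.17 with a 95% interval of -0.03 to 0.38, -0.07 with -0.27 to 0.14, and 0.07 with -0.14 to 0.27). The authors' deposited table called Dusp1 higher with ACBI1 at this time (log2 fold change 0.35, adjusted p = 0.000249) and not with the other compounds. Other members did differ, and the median over the 10 was -0.05 with ACBI1, -0.69 with BRM014 and -0.47 with BRDK98, where that of all genes was -0.14, 0.04 and 0.08. With BRM014, 6 members fell and 1 rose, against 13.4% and 16.8% of all genes tested, so that the single rise was below the share of all genes. The 60 min BRM014 libraries were the least alike pair of experiment 4. Their replicate SD on the log2 scale was 0.309 over all genes tested, against 0.143 for the 60 min controls. Dusp2 was at 117 and 96.8 TPM with BRM014, against 276 and 239 TPM in control cells (-1.26 ± 0.10, adjusted p = 4.4e-07). Dusp4 was at 4.82 and 7.78 TPM, against 20.4 and 25.2 TPM (-1.73 ± 0.16, adjusted p = 1.7e-06), and Dusp16 was at 5.14 and 6.65 TPM, against 18.7 and 19.5 TPM (-1.55 ± 0.10, adjusted p = 3.49e-08). The Dusp16 values with BRM014 at 60 min were thus close to the 5.004 and 4.87 TPM of unstimulated control cells. Dusp3 (-0.68), Dusp5 (-0.70) and Dusp7 (-0.79) also fell. The riser was Dusp10, a JNK and p38 phosphatase, at 4.07 and 4.23 TPM with BRM014, against 1.36 and 1.07 TPM in control cells (1.22 ± 0.12, adjusted p = 2.93e-06). Dusp6 did not pass (0.41) but was called higher without BRM014 replicate 1 (0.74, adjusted p = 0.000573).

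With BRDK98 at 60 min, 6 members fell and 1 rose, against 5.53% and 6.05% of all genes tested. Dusp5 was at 55.4 and 44.3 TPM, against 141 and 158 TPM in control cells (-1.57 ± 0.14, adjusted p = 3.04e-06). Dusp16 was at 7.71 and 8.28 TPM, against 18.7 and 19.5 TPM (-1.16 ± 0.10, adjusted p = 1.06e-06), and Dusp8 was at 3.23 and 3.02 TPM, against 6.60 and 7.28 TPM (-0.94 ± 0.12, adjusted p = 8.02e-05). Both treated libraries lay below both control libraries for each of these, a separation not counted over all genes. Dusp4 (-0.80), Dusp7 (-0.56) and Dusp2 (-0.37) fell by less. The Dusp2 call was lost without 60 min control replicate 1 (-0.27, adjusted p = 0.27), BRDK98 replicate 1 (-0.40, 0.0897) or BRDK98 replicate 2 (-0.35, 0.132), and that of Dusp7 without 60 min control replicate 2 (-0.46, 0.142) or BRDK98 replicate 2 (-0.49, 0.141). The riser was Dusp6, at 10.8 and 11.02 TPM with BRDK98, against 3.85 and 3.54 TPM in control cells (1.34 ± 0.17, adjusted p = 6.07e-05). It had been lower with the same compound at 20 min. With ACBI1 at 60 min, 3 members fell and 1 rose, against 13.7% and 11.6%, so that the single rise was near the share of all genes. Dusp5 was at 90.7 and 83.5 TPM with ACBI1, against 141 and 158 TPM in control cells (-0.77 ± 0.14, adjusted p = 0.000952). Dusp4 (-0.61, adjusted p = 0.0077) and Dusp8 (-0.54, adjusted p = 0.00346) fell too, and Dusp16 rose, to 23.6 and 23.0 TPM (0.27, adjusted p = 0.0392). The Dusp4 call was lost without 60 min control replicate 2 (-0.46, adjusted p = 0.192) or either ACBI1 library (-0.62 with 0.0905, -0.60 with 0.0885). That of Dusp8 was lost without either 60 min control library (-0.60 with 0.0531, -0.48 with 0.115) or ACBI1 replicate 1 (-0.49 with 0.133). The Dusp16 call was lost without any 1 of the 4 libraries compared (0.24 to 0.30, adjusted p of 0.0983 to 0.152) and without any 1 of the 20 min ACBI1 and BRM014 libraries, which also enter through the error (0.0516 to 0.0535). Without either 60 min BRM014 library, Dusp2 was called higher (0.21, 0.0354 and 0.0352) and Dusp3 lower (-0.36, 0.0364 and 0.0384). The count was then 6, where 33.9% and 33.8% of all genes were called in either direction. Dusp3 was called lower without ACBI1 replicate 1 too (-0.45, 0.0343).

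Between compounds at 60 min, BRM014-treated cells had less of 6 members and more of 1 than ACBI1-treated cells, where 19.6% and 28.2% of all genes were called. The largest was Dusp16 (-1.82), followed by Dusp2 (-1.48) and Dusp4 (-1.12), and Dusp10 was higher (1.04). BRDK98-treated cells had less of 4 members and more of 1 than ACBI1-treated cells (14.3% and 20.7%), with Dusp16 (-1.43) lower and Dusp6 (1.12) higher. BRDK98-treated cells had less of 3 members and more of 5 than BRM014-treated cells (12.3% and 14.4%). Dusp5 (-0.87), Dusp10 (-0.85) and Dusp8 (-0.76) were lower, and Dusp6 (0.93), Dusp4 (0.92), Dusp2 (0.89), Dusp3 (0.54) and Dusp16 (0.39) were higher. The Dusp16 call of this pair was lost without BRM014 replicate 1 (0.23, adjusted p = 0.0824) or BRDK98 replicate 2 (0.35, 0.0753). Between BRM014 and ACBI1 the lower level of Dusp1 was lost as a call without any 1 of 13 libraries (-0.18 to -0.25) and that of Dusp7 without ACBI1 replicate 1 or BRM014 replicate 1 (-0.34 and -0.29). The lower Dusp8 with BRDK98 than with ACBI1 was lost without replicate 2 of either compound (-0.37 without that of BRDK98, -0.36 without that of ACBI1). Dusp7 gained a call as lower with BRDK98 than with ACBI1 without ACBI1 replicate 2 (-0.47) or either BRM014 library (-0.29), and as higher with BRDK98 than with BRM014 without BRM014 replicate 2 (0.45). Of the other MAP kinase genes at 60 min, Mknk2, a kinase of the translation factor eIF4E, was at 558 TPM with BRM014 against 79.9 TPM in control cells (2.77 ± 0.11), and Mapkapk2 was at 220.0 TPM against 533 TPM (-1.28 ± 0.07). Of the 9 tested inhibitors outside the phosphatase family 5 fell and 1 rose with BRM014, 3 fell and 2 rose with BRDK98, and 4 fell and 1 rose with ACBI1. Over all genes 13.4% fell and 16.8% rose with BRM014, 5.53% and 6.05% with BRDK98, and 13.7% and 11.6% with ACBI1. Spry2 was at 2.41 TPM with BRM014 (-1.32 ± 0.13) and at 1.66 TPM with BRDK98 (-1.68 ± 0.13), against 7.53 TPM in control cells.

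At 4 hr the compounds separated on Dusp1 and Dusp5, each set against the single control library. Dusp1 was at 8.96 and 9.69 TPM with BRDK98, against 298 TPM in the control (-4.85 ± 0.16, adjusted p = 3.12e-08), values within the 8.51 to 11.8 TPM of unstimulated cells. It was at 174 and 158 TPM with BRM014 (-0.84 ± 0.16, adjusted p = 0.00117) and at 206 and 229 TPM with ACBI1 (-0.45 ± 0.16, adjusted p = 0.0428). The ACBI1 call was lost without any 1 of the 6 compound libraries, with differences of -0.37 to -0.53 and adjusted p of 0.0571 to 0.16. Dusp5 was at 80.8 and 67.5 TPM with BRM014, against 6.39 TPM in the control (3.34 ± 0.21, adjusted p = 8.83e-07), while with BRDK98 (7.65 and 7.73 TPM) and ACBI1 (8.61 and 10.1 TPM) it did not pass. The annotated exons of Dusp5 share 547 bases with AC137853.2 on the other strand. How many of these lie in the model of 1150 bases counted in experiment 1 was not determined. Dusp2 was at 31.4 and 39.5 TPM with BRDK98 (-1.90 ± 0.14, adjusted p = 4.44e-06) and at 44.0 and 40.7 TPM with BRM014 (-1.64 ± 0.14, adjusted p = 6.44e-06), against 134 TPM in the control. With ACBI1 it was at 148 and 176 TPM and did not pass (0.26, with a 95% interval of -0.05 to 0.58). Dusp16 fell with all 3, by 0.51 with ACBI1, 1.33 with BRM014 and 0.87 with BRDK98, and the ACBI1 call was lost without ACBI1 replicate 2 (-0.44, adjusted p = 0.115).

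In counts at 4 hr, 2 members rose and 4 fell with BRDK98 (22% and 12.4% of all genes tested), 4 rose and 3 fell with BRM014 (26.4% and 16.4%), and 0 rose and 3 fell with ACBI1 (20% and 13.5%). The 2 rises with BRDK98 were thus near the background. The median over the members was 0.31 with ACBI1, 0.45 with BRM014 and -0.06 with BRDK98, and that of all genes was 0.25, 0.43 and 0.46. Dusp7, an ERK phosphatase of the cytoplasm, was at 3.47 and 2.85 TPM with BRDK98 (-1.36) and at 4.02 and 4.12 TPM with ACBI1 (-1.07), against 9.62 TPM in the control. Dusp10 was at 5.92 and 6.72 TPM with BRM014, against 2.39 TPM in the control (1.11 ± 0.19, adjusted p = 0.000514). Dusp6 rose with BRDK98 (2.02 and 2.12 TPM) and BRM014 (1.99 and 1.44 TPM), against 0.257 TPM in the control, and these calls were lost without BRDK98 replicate 2 (1.26, adjusted p = 0.055) and BRM014 replicate 1 (0.96, adjusted p = 0.103). Dusp8 rose with BRDK98 (0.999 and 1.08 TPM) and BRM014 (0.877 and 0.750 TPM), against 0.149 TPM or 4 reads in the control. Those calls were lost without BRDK98 replicate 2 (0.80, adjusted p = 0.0632) or without any 1 of 6 libraries for BRM014 (0.61 to 0.71, adjusted p of 0.05 to 0.116). Calls were gained by Dusp10 with BRDK98 without BRDK98 replicate 1 (1.13, adjusted p = 0.0256), Dusp3 with BRDK98 without either 0 hr control (-0.29), Dusp4 with ACBI1 without ACBI1 replicate 2 (0.91, adjusted p = 0.0112) and Dusp6 with ACBI1 without either 1 hr control (0.57). Between compounds, BRDK98-treated cells had less Dusp1 than ACBI1-treated cells (-4.40 ± 0.13, adjusted p = 6.06e-09) and than BRM014-treated cells (-4.01 ± 0.13, adjusted p = 8.94e-09). BRM014-treated cells had more Dusp5 than ACBI1-treated cells (2.86 ± 0.17, adjusted p = 9.01e-07). In these 3 pairs, 4 members were lower and 0 higher for BRDK98 against ACBI1 (15.4% and 21.2% of all genes), 4 lower and 1 higher for BRDK98 against BRM014 (22.1% and 23.2%), and 3 lower and 3 higher for BRM014 against ACBI1 (14.1% and 16.2%). Single libraries ended 6 of these calls. For BRDK98 against ACBI1 they were Dusp16 (without any 1 of 8 libraries, -0.30 to -0.44) and Dusp4 (-0.26 without ACBI1 replicate 1, -0.39 without BRDK98 replicate 2). For BRDK98 against BRM014 they were Dusp3 (-0.27 to -0.32) and Dusp16 (0.44 to 0.47), each without any 1 of the 4 libraries compared. For BRM014 against ACBI1 they were Dusp1 (without any 1 of the 6 compound libraries, -0.31 to -0.47) and Dusp10 (without either ACBI1 library or BRM014 replicate 2, 0.63 to 0.71). Calls were gained for BRDK98 against ACBI1 by Dusp6 without either 1 hr control (0.72) and Dusp10 without BRDK98 replicate 1 (0.72), for BRM014 against ACBI1 by Dusp4 without ACBI1 replicate 2 (-0.66), and for BRDK98 against BRM014 by Dusp2 without BRDK98 replicate 2 (-0.42).

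The effect of a compound at 60 min was also tested against its effect at 20 min. With BRDK98, 2 members had a more positive effect at 60 min and 2 a more negative one, against 3.58% and 3.08% of all genes tested. The difference was 2.72 ± 0.24 for Dusp6 (adjusted p = 3.45e-06) and 1.18 ± 0.13 for Dusp1 (adjusted p = 5.03e-05). With BRM014, 2 were more positive and 3 more negative, against 6.85% and 6.41%, with Dusp16 (-1.41 ± 0.14, adjusted p = 6.46e-06) and Dusp4 (-1.39 ± 0.22, adjusted p = 0.000655) at one end and Dusp10 (1.13 ± 0.17, adjusted p = 0.00031) at the other. With ACBI1, 0 were more positive and 2 more negative, against 9.37% and 9.12%. They were Dusp5 (-0.95 ± 0.20, adjusted p = 0.00403) and Dusp8 (-0.68 ± 0.17, adjusted p = 0.0107), and the Dusp8 call was lost without any 1 of 7 of the libraries compared, all but 20 min ACBI1 replicate 2 (-0.58 to -0.74, adjusted p of 0.0505 to 0.122). Without either 60 min BRM014 library, further calls were gained for ACBI1 by Dusp4 (-0.58), Dusp6 (0.61) and Dusp16 (0.36) and for BRDK98 by Dusp2 (0.60), and without replicate 2 for BRM014 by Dusp2 (0.39). The ACBI1 count was then 5, where 28.1% and 28.2% of all genes were called in either direction.

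**Figure D4:**
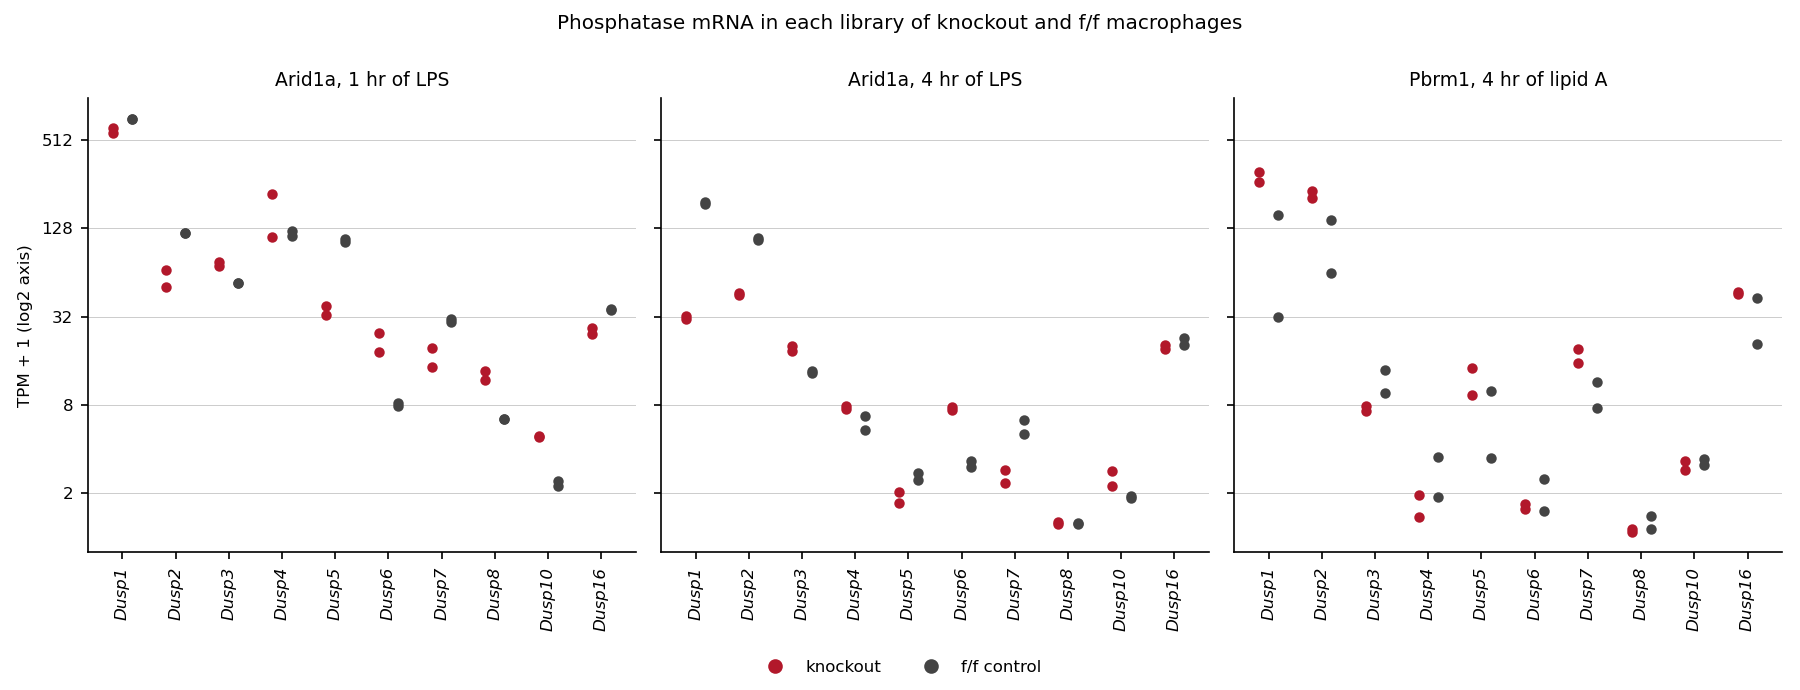
TPM + 1 of the 10 members on a log2 axis in Arid1a-/- and Arid1a f/f cells at 1 and 4 hr of LPS and in Pbrm1-/- and Pbrm1 f/f cells at 4 hr of lipid A, 1 point per library. Dusp1 lies at 30.0 and 31.1 TPM in Arid1a-/- cells at 4 hr, against 188 and 192 TPM in f/f cells.

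Loss of Arid1a, a subunit of the canonical BAF form of SWI/SNF, went with higher levels of some members and lower levels of others at 1 hr of LPS. There 4 rose and 4 fell, against 18.7% and 16.8% of the 11798 genes tested, and the median difference was 0.07 over the members and 0.03 over all genes. Dusp2 was at 65.9 and 50.1 TPM in Arid1a-/- cells, against 119 and 118 TPM in f/f cells (-1.03 ± 0.15, adjusted p = 0.000398), and Dusp5 was at 31.9 and 36.9 TPM, against 103 and 108 TPM (-1.59 ± 0.43, adjusted p = 0.026). Dusp6 was at 17.4 and 23.9 TPM in Arid1a-/- cells, against 6.89 and 7.17 TPM in f/f cells (1.42 ± 0.15, adjusted p = 6.76e-05). Knockout and f/f libraries did not overlap for any of the 3, a separation not counted over all genes. Dusp8 was at 10.8 and 12.6 TPM, against 5.45 and 5.44 TPM (0.97 ± 0.13, adjusted p = 0.000262), and Dusp10 was at 3.80 and 3.88 TPM, against 1.23 and 1.42 TPM (1.06 ± 0.18, adjusted p = 0.00113). Dusp3 rose (0.42) and Dusp7 (-0.84) and Dusp16 (-0.48) fell. The Dusp5 call was lost without any 1 of the 4 libraries compared (-1.49 to -1.69, adjusted p of 0.0766 to 0.117), that of Dusp3 without either f/f library (0.0605 and 0.066), and that of Dusp16 without either f/f library or knockout replicate 1 (0.0522 to 0.0843). Dusp1 was at 570.2 and 620.1 TPM in Arid1a-/- cells, against 714 and 715 TPM in f/f cells, and did not pass (-0.26, adjusted p = 0.575). The 2 unstimulated f/f libraries differed in Dusp1 (17.0 and 7.04 TPM), and without either of them it fell (-0.27, adjusted p = 0.0274 and 0.027). Dusp4 was at 111 and 218 TPM, against 112 and 123 TPM, and did not pass (0.40, adjusted p = 0.681).

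At 4 hr of LPS the largest knockout effect among the members was on Dusp1. It was at 31.1 and 30.0 TPM in Arid1a-/- cells, against 188 and 192 TPM in f/f cells (-2.60 ± 0.33, adjusted p = 0.0019). The unstimulated f/f cells had 17.0 and 7.04 TPM, and their spread enters every Dusp1 test of experiment 2 through the shared error. The knockout effect on Dusp1 was more negative at 4 hr than at 1 hr by 2.33 ± 0.47 (log2 difference -2.33, adjusted p = 0.0202), though this call was lost without any 1 of 7 of the libraries compared, all but knockout replicate 2 at 1 hr (-2.31 to -2.39, adjusted p of 0.0514 to 0.0725). Dusp8 also differed between the times (-0.96 ± 0.18, adjusted p = 0.00637), and at 4 hr it was at 0.220 and 0.265 TPM in Arid1a-/- cells, against 0.247 and 0.224 TPM in f/f cells. These were 2 of 10 members lower and 0 higher in that test, against 8.11% and 7.79% of all genes. Over the members at 4 hr, 2 rose and 3 fell, against 13.9% and 10.8% of all genes, so that the count of rises was near the background. Dusp5 did not pass at 4 hr (-0.47) or between the times (1.12), but was called in both without either 0 hr f/f library (adjusted p of 0.0307 to 0.0321 at 4 hr, 0.00578 to 0.00602 between the times). The median was -0.05 over the members and 0.05 over all genes. Dusp2 was at 44.1 and 45.2 TPM in Arid1a-/- cells, against 105 and 109 TPM in f/f cells (-1.24 ± 0.15, adjusted p = 0.000199), and Dusp7 was at 1.36 and 1.88 TPM, against 4.07 and 5.34 TPM (-1.12 ± 0.16, adjusted p = 0.000732). Dusp6 was at 6.37 and 6.76 TPM, against 2.03 and 2.32 TPM (1.25 ± 0.15, adjusted p = 0.00023), and Dusp3 was at 17.6 and 19.2 TPM, against 12.2 and 12.7 TPM (0.53 ± 0.09, adjusted p = 0.00168). Dusp2 and Dusp7 were therefore lower, and Dusp3 and Dusp6 higher, in Arid1a-/- cells at both times. The Dusp3 call at 1 hr, however, was lost without either f/f library. The authors' deposited table did not call Dusp3 at 1 hr (log2 fold change 0.39, DESeq2 adjusted p = 0.0526). Of the kinases activated by MAP kinases, 3 of 10 rose and 4 fell at 4 hr, against the same 13.9% and 10.8%, and Map3k11, an upstream kinase of JNK, was at 20.4 TPM in Arid1a-/- cells against 44.7 TPM in f/f cells at 1 hr (-1.11 ± 0.15) and at 14.7 TPM against 31.0 TPM at 4 hr (-1.03 ± 0.15).

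Loss of Pbrm1, a subunit of the PBAF form, gave no called member at 4 hr of lipid A. By limma 0 of the 9 tested members rose or fell, against 0% and 0.00905% of the 11044 genes, and the authors' deposited table called 0 as well. An unadjusted limma p under 0.05 was found for 3 of the 9 members and for 1148 of the 11044 genes. The median difference was 0.63 over the members and -0.12 over all genes. The f/f libraries differed widely. Dusp1 was at 266 and 310.4 TPM in Pbrm1-/- cells, against 158 and 30.7 TPM in f/f cells (2.02 ± 0.81, adjusted p = 0.488), and Dusp2 was at 206 and 232 TPM, against 145 and 62.9 TPM (1.18 ± 0.37, adjusted p = 0.468). Dusp7 was at 14.5 and 18.2 TPM, against 10.5 and 6.66 TPM (0.88 ± 0.22, adjusted p = 0.468). Dusp16 was at 44.4 and 46.2 TPM, against 42.1 and 19.7 TPM (0.63 ± 0.31, adjusted p = 0.506). Dusp3 was at 6.86 and 6.29 TPM, against 8.58 and 12.8 TPM (-0.61 ± 0.20, adjusted p = 0.468). The count rests on one library: without f/f replicate 1 at 4 hr, 7 members were called, against 10% of all genes, among them Dusp1 (3.18, adjusted p = 2.71e-06), Dusp2 (1.78, adjusted p = 4.06e-05) and Dusp16 (1.16, adjusted p = 0.000932). Without f/f replicate 2 the count was 0, against 0.109% of all genes, with Dusp1 at 0.86 (adjusted p = 0.123). The other calls without replicate 1 were Dusp5 (1.74), Dusp7 (1.17), Dusp3 (-0.87) and Dusp4 (-1.12), which were at 0.23, 0.58, -0.34 and -0.19 without replicate 2. Dusp6, called in neither, was at -0.62 without replicate 1 and 0.11 without replicate 2.

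Across the 23 group means, 9 of the 10 members could be ranked against 10409 genes by Pearson correlation of log2(TPM + 1). The group means of each gene were first centred on their mean within each experiment. The ranking is a description over groups that share libraries, stimuli and normalization. Dusp1 was most like the mRNA-decay factor Zfp36 (r = 0.94) and Junb (0.92). Dusp2 was most like the feedback inhibitors Socs3 (0.98) and Nfkbia (0.95), Dusp16 most like the caspase regulator Cflar (0.95), and Dusp5 most like the calcineurin regulator Rcan1 (0.95). Dusp4 was most like Myc (0.94) and Egr2 (0.92). Dusp3, which falls with time, was most like the TGF-beta mediator Smad3 (0.99). Dusp6 (Farsb, 0.90), Dusp7 (Vsig10l, 0.91) and Dusp10 (Srsf7, 0.90) had no neighbour above those values. Among the members themselves the closest pair was Dusp2 and Dusp16 (0.91), followed by Dusp1 and Dusp2 (0.87).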

How the data were processed

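RNA of mouse bone marrow-derived macrophages was sequenced from 46 labelled samples as 50 bp single-end reads of stranded mRNA libraries, per the labels' protocols. The deposited expression values are TPM per gene, computed by the authors, per the file headers, and the submitters' processing notes name STAR 2.5.3a, HOMER, DESeq2 and the mm10 build. HOMER counted reads in exons on both strands, per the file headers, so a member and an overlapping antisense gene cannot be told apart. The authors' deposited comparison tables hold log2 fold changes and adjusted p-values, which were used as a second count of called members. One 4 hr control column of experiment 1 repeated another in all 24537 genes and was counted once, leaving 45 libraries in 23 groups. A further 47 per-sample columns were not used here.

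Each experiment was fitted separately with limma 3.58.1 in R 4.3.3 on log2(TPM + 1) with all its groups, trend and robust moderation, over genes at 1 TPM or more in at least 2 libraries. p-values were adjusted by Benjamini-Hochberg over all genes in each of 35 comparisons. Low TPM values came out as whole reads within 0.1 read for 100.0% of the genes checked, and limma voom on those reads was an alternative. No count model was the main test because the deposited unit is TPM. Intervals are 95% intervals of the fit. All 10 members were tested in every comparison, except Dusp8 in experiment 3, but not every value is printed here. From the lists of pathway genes, at most 2 called genes per list at 5 TPM or more in a group were named, those with the largest change. The deleted genes Pbrm1 and Arid1a were named too. The members were picked by symbol, and they, the lists and the tests were chosen with earlier results of these data known. The alternatives were each scaling alone, a pseudocount of 0.1, no filter, no moderation, voom, the replicate block and leaving out each library. Depth limits the lowest members: 3 reads on a 2 kb transcript were worth 0.0654 to 0.298 TPM, which covers counting error only.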

Additional observations from a re-analysis of the deposited data

Results flagged for a closer look

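The effect of a perturbation differed between times by a test of the difference itself for 13 combinations of member and perturbation. Only experiments 2 and 4 had this test, with 10 members tested per perturbation. Of all genes, 3.58% were higher and 3.08% lower with BRDK98, 6.85% and 6.41% with BRM014, and 9.37% and 9.12% with ACBI1. For loss of Arid1a the shares were 7.79% and 8.11%. With ACBI1 and with loss of Arid1a, 2 of 10 members were called, near the share of all genes called in either direction. The values per member are log2 differences, the later effect minus the earlier one. With BRDK98, 60 min minus 20 min, they were 2.716 for Dusp6, 1.177 for Dusp1, -0.928 for Dusp8 and -0.919 for Dusp16. Dusp6 was the member whose direction turned round, with 7.42 and 8.63 TPM at 20 min with BRDK98 against 21.2 and 23.6 TPM in control cells, and 10.8 and 11.02 TPM at 60 min against 3.85 and 3.54 TPM. With BRM014 they were 1.13 for Dusp10, 0.98 for Dusp6, -0.544 for Dusp3, -1.387 for Dusp4 and -1.408 for Dusp16. With ACBI1 they were -0.953 for Dusp5 and -0.677 for Dusp8. For loss of Arid1a, 4 hr minus 1 hr, they were -2.332 for Dusp1 and -0.961 for Dusp8. The Dusp1 difference with loss of Arid1a was lost without any 1 of 7 libraries (-2.31 to -2.39), the Dusp8 difference with ACBI1 without any 1 of 7 (-0.58 to -0.74), and the Dusp6 difference with BRM014 without 20 min control replicate 2 or 20 min BRM014 replicate 1 (0.91 and 0.85). With groups of at most 2 libraries, no group was large enough to test for a single outlying library.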

How the results depend on the processing

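No member called in the report changed sign under an alternative. A call in the other direction than the reported value, which had not passed, was made in 5 cases. With the scaled TPM alone they were Dusp3 at 1 hr of lipid A in experiment 1 (0.39), Dusp16 between 1 and 4 hr there (0.41), Dusp3 with BRM014 at 4 hr (-0.51) and Dusp2 between 1 and 4 hr of LPS (0.41), and without 0 hr f/f replicate 1 it was Dusp5 at 4 hr of LPS (0.55, against -0.955 without replicate 2). Values that passed in neither fit differed in sign in 73 of 7324 cases, over 45 results.

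The count of members called moved by over 1.5 times in these cases, each given with the share of all genes called in either direction and, in brackets, both values of the report. With the TPM as deposited alone it was 7 with 52.6% for BRDK98 against ACBI1 at 4 hr (4 with 36.5%). With the scaled TPM alone it was 8 with 43.5% for BRDK98 against ACBI1 at 60 min (5 with 35%) and 4 with 23.6% for the ACBI1 difference between 60 and 20 min (2 with 18.5%). With no filter it was 1 with 21.4% for ACBI1 at 4 hr (3 with 33.4%), 2 with 23.6% for BRDK98 against ACBI1 at 4 hr and 1 with 0.577% for BRDK98 against BRM014 at 20 min (2 with 0.944%). With a pseudocount of 0.1 it was 2 with 25.4% for ACBI1 at 60 min (4 with 25.2%), 1 with 18.3% for the ACBI1 difference between times, 1 with 14.4% for the Arid1a difference between times (2 with 15.9%) and 1 with 0.814% for BRDK98 against BRM014 at 20 min. With voom it was 4 with 33.6% for BRM014 at 4 hr (7 with 42.8%), 4 with 18.9% for the ACBI1 difference between times and 1 with 16% for the Arid1a difference between times. The cause was not tested.

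Leaving out each library in turn gave 0 to 7 members for loss of Pbrm1 (all genes 0% to 10%), 5 to 9 for loss of Arid1a at 1 hr (20.7% to 43.7%) and 1 to 3 for its difference between times (7.81% to 26.1%), 2 to 4 at 20 min of lipid A (0.451% to 9.59%), 1 to 6 for ACBI1 at 60 min (16.5% to 33.9%), 0 to 1 for ACBI1 at 20 min (0% to 0.73%), 1 to 3 for BRM014 at 20 min (0.13% to 3.59%) and 1 to 5 for the ACBI1 difference between times (12.4% to 28.2%). Between compounds it gave 2 to 4 (BRDK98 against ACBI1, 4 hr, 26.8% to 38.8%), 3 to 5 (BRDK98 against BRM014, 4 hr, 34.3% to 48.4%), 1 to 3 (BRM014 against ACBI1, 20 min, 0.173% to 0.609%) and 1 to 3 (BRDK98 against BRM014, 20 min, 0.39% to 1.53%). A lone library left in a group was assumed to vary like the other groups. Experiment 1 could not be refitted without its only 4 hr control.

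Replicate numbers appear in all groups, and no label says whether they pair the samples. Deviations of same-numbered libraries correlated at -0.04 to 0.17 (experiment 1), -0.09 to 0.15 (experiment 2), 0.01 to 0.23 (experiment 3) and -0.24 to 0.24 (experiment 4). With at most 2 libraries per group these values cannot exclude pairing. With the number as a replicate block, 343 member results stayed on their side of the threshold, 4 gained a call and 1 lost it. For loss of Pbrm1 the block also gave 0 called members.

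Depth limits the lowest values, since the fewest reads in a library were 1 for Dusp8, 4 for Dusp6, 7 for Dusp4, 11 for Dusp5, 12 for Dusp10 and 13 for Dusp2, and the 4 hr comparisons of experiment 1 rest on 1 control library. Dusp3, Dusp5, Dusp8 and Dusp1 share 604, 547, 66 and 11 annotated exon bases with genes on the other strand. How many of these lie in the transcript models counted was not determined.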
